A study of Mus musculus with 2 samples.

Results

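Conventional T cells with a high interferon response were described from tumors of the B16 mouse melanoma cell line and of B16–IL-33, a B16 line made to overexpress secreted IL-33. Tumors had been taken on day 9 after intradermal inoculation of 100000 cells into C57BL/6J mice, and T cells positive for TCR-β were sorted from live CD45+ cells, labelled with hashtag antibodies and pooled. The pool gave 1 gene expression library made from the 5′ end of transcripts, 1 hashtag library and 1 TCR library. Because the cells form 1 sample without replicates, no p-value is given. Apart from coordinates and ranges named as lowest to highest cell, ranges in parentheses are 95% intervals. These intervals cover counting error only, although the transcripts of 1 cell are not independent.

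Members were chosen by their counts of unique molecular identifiers (UMIs), each standing for 1 captured transcript. From 14035 barcodes, 9078 cells had 200 to 2500 detected genes and under 5% mitochondrial UMIs. Of these, 2373 were conventional T cells without *Pdcd1*, that is cells with at least 1 UMI of *Cd3d*, *Cd3e* or *Cd3g*, at least 1 UMI of *Cd4*, *Cd8a* or *Cd8b1*, and no UMI of *Foxp3*, which marks regulatory T (Treg) cells, or of *Pdcd1*, which encodes the inhibitory receptor PD-1. Members were the 215 cells (9.06%) in which *Isg15*, *Ifit1*, *Ifit3*, *Rsad2*, *Usp18* and *Mx1* summed to at least 4 UMIs. There were 95 members with more *Cd8a* and *Cd8b1* than *Cd4* UMIs (CD8 members), 114 with more *Cd4* (CD4 members) and 6 with equal counts, which were not described further. Cells of the same kind in which the sum was 0 served as reference and numbered 505 for CD8 and 973 for CD4 cells. The gene for PD-1 is counted here only as RNA, and 1 cell without a UMI of a gene can still express it.

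Type I interferons bind a receptor made of IFNAR1 and IFNAR2, whose kinases JAK1 and TYK2 phosphorylate transcription factors of the STAT family. With IRF9 these form a complex that binds interferon-stimulated response elements in promoters and turns on a set of antiviral genes. Interferon-γ, which T cells and NK cells make, acts through another complex that binds a different element, the gamma-activated site, and the gene sets of both pathways overlap. In tumors, such a program is known from lymphocytes and myeloid cells alike.

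The 6 genes that chose the members are classical targets of type I interferon. *Isg15* (ENSMUSG00000035692, chromosome 4, 156199424 to 156200818) encodes a ubiquitin-like protein that is attached to other proteins, and *Usp18* (ENSMUSG00000030107, chromosome 6, 121245906 to 121270917) encodes the protease that removes it and that also dampens receptor signaling. *Ifit1* (ENSMUSG00000034459, chromosome 19, 34640871 to 34650009) and *Ifit3* (ENSMUSG00000074896, chromosome 19, 34583531 to 34588731) encode partners that bind foreign RNA. *Rsad2* (ENSMUSG00000020641, chromosome 12, 26442746 to 26456452) encodes viperin, and *Mx1* (ENSMUSG00000000386, chromosome 16, 97447035 to 97462907) encodes a dynamin-like GTPase that blocks viruses. Coordinates are those of GENCODE vM21 on GRCm38, the assembly also called mm10.

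What these genes share in sequence can be read upstream of their starts. Promoters of 4 of the 6 genes (*Isg15*, *Ifit1*, *Ifit3* and *Rsad2*) are listed in the RefSeq table of GRCm38.p6. They were searched from 250 bases before to 50 bases after the start, on both strands, for a response element-type match, which is GAAA, then any 2 bases, then GAAA. The bases before the start are shown here 5′ to 3′ on the strand of the gene, with the matches in capitals, so that a match on the other strand appears as TTTC, 2 bases and TTTC; overlapping matches form 1 run of capitals.
Isg15, chr4:156200819-156200968, minus strand: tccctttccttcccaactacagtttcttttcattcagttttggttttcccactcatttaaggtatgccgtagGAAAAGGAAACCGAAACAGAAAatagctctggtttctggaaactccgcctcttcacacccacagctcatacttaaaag
Ifit1, chr19:34640739-34640888, plus strand: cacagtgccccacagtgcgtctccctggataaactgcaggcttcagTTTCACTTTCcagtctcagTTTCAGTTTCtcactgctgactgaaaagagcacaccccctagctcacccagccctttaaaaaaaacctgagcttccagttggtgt
Ifit3, chr19:34583363-34583528, plus strand: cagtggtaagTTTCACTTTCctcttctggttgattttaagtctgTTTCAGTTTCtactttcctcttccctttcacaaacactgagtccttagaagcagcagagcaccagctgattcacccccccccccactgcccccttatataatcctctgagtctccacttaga
Rsad2, chr12:26456453-26456602, minus strand: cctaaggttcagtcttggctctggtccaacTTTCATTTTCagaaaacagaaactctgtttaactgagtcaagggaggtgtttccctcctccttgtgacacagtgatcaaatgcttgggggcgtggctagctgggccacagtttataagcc
All 4 promoters held such a match, against 3.44% of the 32851 mouse promoters in the table. *Isg15* held 3 overlapping matches that began 78 to 66 bases before the start, and *Ifit1* and *Ifit3* held 2 each. A match is a description of letters and shows no binding.

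By construction, every member had at least 4 UMIs of the 6 genes, so the following values describe the choice and test nothing. The sum had a median of 6 UMIs in CD8 members (lowest to highest cell, 4 to 144) and of 7 UMIs in CD4 members (lowest to highest cell, 4 to 28). *Isg15* carried most of it, with 593 of the UMIs in CD8 members (62.0%) and 690 in CD4 members (63.7%). It was detected in 94 of 95 CD8 members, with 0 to 91 UMIs per cell and a median of 3, and in 113 of 114 CD4 members, with 0 to 22 UMIs and a median of 5. *Isg15* was thus the common denominator of both kinds, and the other genes were found in part of the members.

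*Ifit1* and *Ifit3* were found in 58.9% and 57.9% of CD8 members and in 48.2% and 51.8% of CD4 members, with 0 to 10 UMIs per cell. *Rsad2* was found in 28.4% of CD8 and 34.2% of CD4 members, *Usp18* in 27.4% and 25.4%, and *Mx1* in 21.1% and 19.3%. A share of 44.6% of the *Rsad2* UMIs of CD8 members came from 1 cell. At least 3 of the 6 genes were detected together in 61 CD8 and 63 CD4 members, whereas 8 CD8 and 20 CD4 members were chosen by *Isg15* alone.

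The sum formed a continuous tail without a gap at the threshold. Just outside it, with 3 UMIs, lay 32 CD8 and 46 CD4 cells, and just inside, with 4 UMIs, lay 21 CD8 and 21 CD4 cells. Another 227 CD8 and 394 CD4 cells in all had 1 to 3 UMIs and belonged to neither members nor reference. Members made up 11.5% (9.39 to 13.9) of the 827 CD8 cells and 7.70% (6.39 to 9.17) of the 1481 CD4 cells of any sum. Members held more UMIs per cell than their reference, with medians of 3811 against 2884 in CD8 and 2825.5 against 2379 in CD4 cells. Levels were therefore compared as counts per 1000000 UMIs (CPM).

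**Figure D1:**
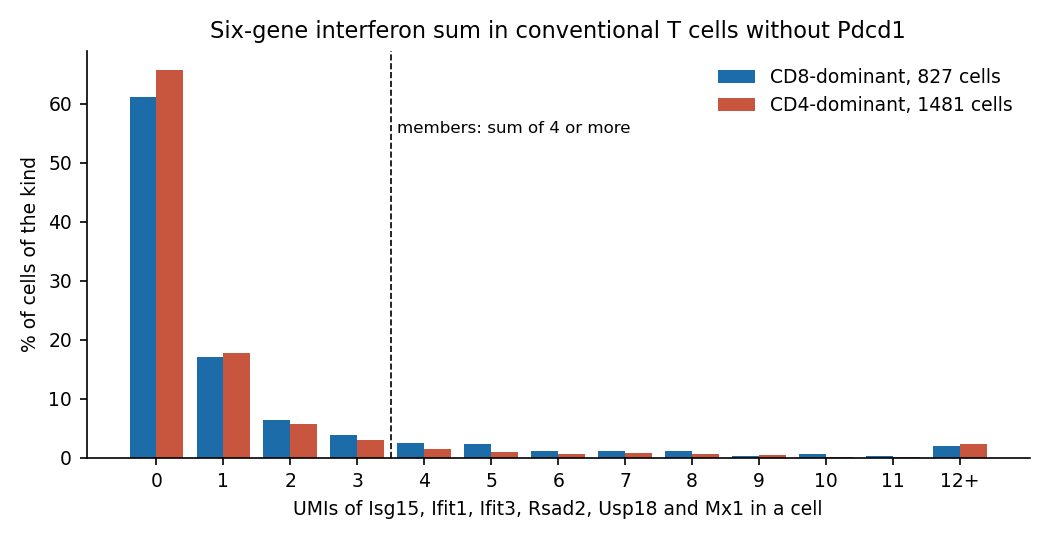
Share of CD8-dominant and CD4-dominant conventional T cells without *Pdcd1* (y axis, % of 827 and 1481 cells) by the UMI sum of the 6 rule genes (x axis, sums of 12 or more in the last bars). Most cells had a sum of 0, shares declined without a gap, and the dashed line marks the threshold of 4 that separates 95 CD8 and 114 CD4 members.

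The label was checked against markers. *Trac*, which encodes the constant region of the TCR α chain, stood at 386 CPM in CD8 members and 370 CPM in their reference, a ratio of 1.04 (0.871 to 1.24), and at 398 and 479 CPM in CD4 cells, a ratio of 0.831 (0.696 to 0.986). A clonotype was assigned in the TCR library to 74.7% of CD8 and 67.5% of CD4 members and to 65.9% and 64.5% of the reference cells. Among cells with a clonotype, 11.3% of CD8 members had at least 2 productive beta chains, against 5.41% of their reference. In CD4 cells these shares were 5.19% and 8.12%. Whether such cells are doublets was not tested. *Il2ra* or *Ikzf2*, genes that Treg cells express, had a UMI in 35.1% of CD4 members and in 36.6% of their reference of 973 cells. *Foxp3*-negative cells by count on both sides can hold Treg cells whose *Foxp3* RNA was not captured.

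Markers of other cells moved with membership, and this touches each result that follows. Of 19 markers of macrophages, dendritic cells, B cells and melanoma cells, members held 392 UMIs in CD8 and 334 in CD4 cells. These were concentrated in a few cells, since 7 CD8 members with at least 10 such UMIs held 89.8% and 8 CD4 members held 91.0%. The highest CD8 member had 147 such UMIs, 1 CD3 UMI and no clonotype, whereas 58 CD8 and 89 CD4 members had none. At least 2 such UMIs were found in 14 of 95 CD8 members (14.7%) against 10.1% of their reference, and in 14 of 114 CD4 members (12.3%) against 3.39%. These 14 CD8 members carried 33.8% of the 6-gene UMIs of all CD8 members, and the 14 CD4 members 16.2%. Of the defining markers, *Flt3*, *Xcr1*, *Cd209a*, *Siglech*, *Cd79a* and *Ms4a1* had no UMI in members of either kind. Ratios are therefore also given without cells that held at least 2 such UMIs (81 against 454 CD8 and 100 against 940 CD4 cells).

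**Figure D2:**
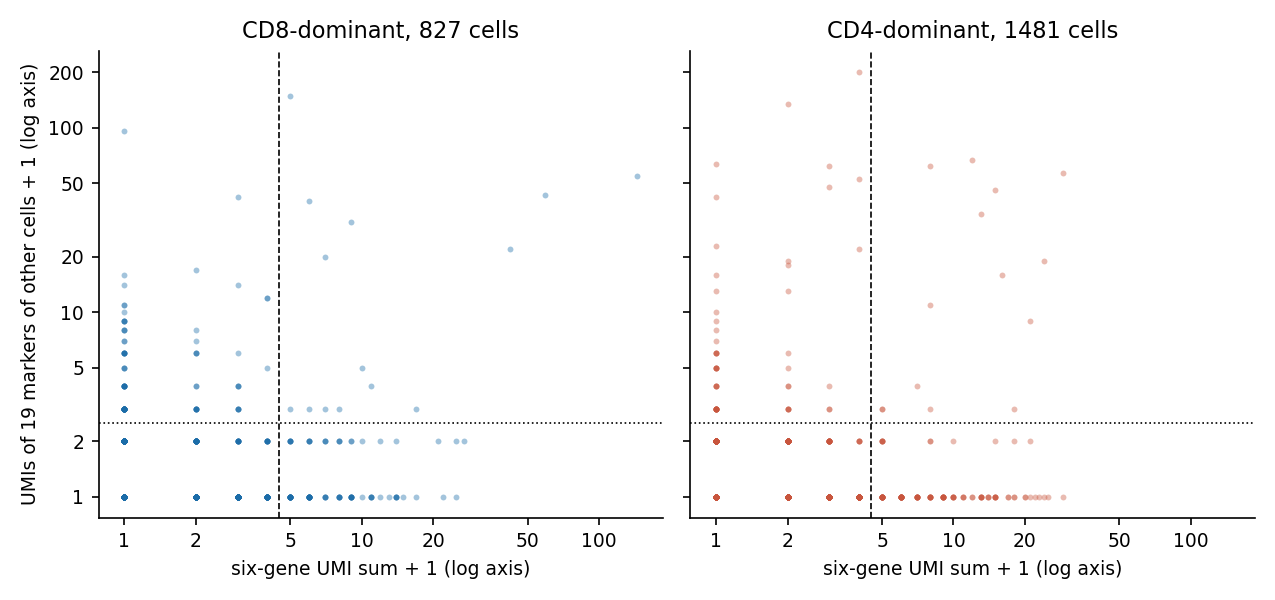
UMIs of 19 markers of macrophages, dendritic cells, B cells and melanoma cells (y axis, plus 1, log) against the 6-gene interferon sum (x axis, plus 1, log), with 1 point per CD8-dominant (left) or CD4-dominant (right) cell. Members lie right of the dashed line and cells with at least 2 marker UMIs above the dotted line; most members hold 0 or 1, and a few reach up to 147 in CD8 and 66 in CD4 members.

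Members differed from the reference far beyond the genes that chose them. Across all mouse genes outside the rule whose mean CPM of both groups reached 50, 95 of 2265 (4.19%) were at least 2-fold higher and 19 (0.839%) at least 2-fold lower in CD8 members. In CD4 members, 106 of 2464 (4.3%) were at least 2-fold higher and 8 (0.325%) at least 2-fold lower. Without cells with at least 2 UMIs of other cell types, 55 genes were higher and 23 lower in CD8, and 78 higher and 10 lower in CD4 members. The sets overlapped in 65 higher genes, 68.4% of the CD8 and 61.3% of the CD4 set, and in 0 of the lower genes. Lists of genes known to be induced by interferon were tallied against these shares. They hold 86 measured genes outside the rule, of which 46 passed the 50 CPM minimum in CD8 and 55 in CD4 cells.

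Of these, 33 of 46 were at least 2-fold higher in CD8 members and 45 of 55 in CD4 members, and 0 were at least 2-fold lower. A gene that is high only in members can pass this minimum through them, so the counts depend on it. With the minimum set on the reference alone, an alternative chosen after seeing the data, 13 of 26 listed genes in CD8 and 20 of 29 in CD4 members were at least 2-fold higher, beside 1.66% and 1.77% of all genes compared in this way. With no minimum, 62 and 73 of 84 listed genes with a UMI were. The counts by list that follow use the minimum on both groups and describe the genes that passed it. The median ratio was 2.93 in CD8 and 3.01 in CD4 cells, beside 0.992 and 1.00 over all genes compared. Summed over all 86 genes, the level was 12879 CPM in CD8 members and 5224 CPM in their reference, a ratio of 2.47 (2.38 to 2.55). In CD4 cells it was 19055 and 6674 CPM, a ratio of 2.86 (2.78 to 2.94). Without cells with UMIs of other cell types these ratios were 2.37 (2.28 to 2.46) and 2.95 (2.86 to 3.04). The ratio of CD4 cells exceeded that of CD8 cells by 1.16-fold (1.11 to 1.21), a small difference whose counting interval lay above 1. Its direction depended on the cell filter. Without the upper limit of detected genes the order was reversed, at 2.504 in CD8 and 2.286 in CD4 cells. Under each other alternative applied to both kinds the CD4 ratio stayed the higher one.

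The spread between cells was wide, and the ranges after the 4 medians that follow run from the lowest to the highest cell. Per 10000 UMIs of a cell, the 86 genes had 122 UMIs in the median CD8 member (26.7 to 406) and 48.7 in the median reference cell (8.503 to 360). The median CD4 member had 184 (33.1 to 688) and the median reference cell 60.8 (0 to 392). The groups overlapped, and 60 of 95 CD8 members (63.2%) and 97 of 114 CD4 members (85.1%) lay above the 90th percentile of their reference. Cells chosen by *Isg15* alone reached 12558 CPM (11452 to 13742) in CD8 and 13489 CPM (12621 to 14400) in CD4 cells. Where at least 3 of the 6 genes were detected, the level was 13395 CPM (12973 to 13827) in CD8 and 22299 CPM (21657 to 22955) in CD4 members, so that in CD4 cells those with more of the 6 genes also had more of the 86.

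The first group comprised antiviral effectors, which degrade viral RNA, block entry or hold back budding virus. In CD8 cells 15 of 17 measured above the minimum were at least 2-fold higher and in CD4 cells 18 of 19, with summed ratios of 2.73 (2.61 to 2.86) and 3.16 (3.04 to 3.27). *Rtp4* (chromosome 16, 23520291 to 23614222) stood at 254 CPM in CD8 members and 48.1 CPM in their reference, a ratio of 5.29 (3.92 to 7.16). In CD4 cells it stood at 290 and 52.9 CPM, a ratio of 5.49 (4.22 to 7.13). It was detected in 62.1% of CD8 and 56.1% of CD4 members and in 14.5% and 11.9% of reference cells.

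*Oas3* (chromosome 5, 120753098 to 120777661), an oligoadenylate synthetase that activates RNase L, separated the kinds. It stood at 81.5 CPM in CD8 members and 18.6 CPM in their reference, a ratio of 4.38 (2.61 to 7.36). In CD4 cells it stood at 142 and 12.7 CPM, a ratio of 11.2 (7.09 to 17.9), which exceeded the CD8 ratio 2.56-fold (1.26 to 5.19). *Slfn5* (chromosome 11, 82951349 to 82964840), of the Schlafen family, was among the 12 highest ratios of both kinds. It stood at 103 against 11.4 CPM in CD8 cells (ratio 9.03, 5.15 to 16.4) and at 309 against 41.3 CPM in CD4 cells (ratio 7.48, 5.68 to 9.84). *Oasl2* passed the minimum only in CD4 cells, where it stood at 129 against 7.95 CPM, a ratio of 16.2 (9.45 to 28.9).

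*Bst2* (chromosome 8, 71534255 to 71537456), which encodes tetherin, stood at 508 against 180 CPM in CD8 cells, a ratio of 2.83 (2.36 to 3.38). In CD4 cells it stood at 667 against 154 CPM, a ratio of 4.32 (3.67 to 5.08), 1.53-fold (1.20 to 1.95) above that of CD8 cells. *Ifi27l2a* was the most abundant of the group. It stood at 3008 against 1249 CPM in CD8 and 5977 against 2227 CPM in CD4 cells, with ratios of 2.41 (2.24 to 2.58) and 2.68 (2.55 to 2.82). *Isg20*, an exonuclease gene, had ratios of 5.07 (3.70 to 6.97) and 3.74 (2.97 to 4.68). *Epsti1*, at 1.43 and 1.98, stayed under 2-fold in both kinds and *Samhd1* only in CD8 cells, at 1.96.

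Sensors of nucleic acids formed the second group, with 7 of 8 in CD8 and 6 of 8 in CD4 cells at least 2-fold higher. Their summed ratios were 3.07 (2.78 to 3.40) and 3.34 (3.05 to 3.64). *Ifi213*, *Ifi206*, *Ifi208*, *Ifi209* and *Ifi203*, of the cluster of DNA-binding HIN-200 genes, had ratios from 2.42 to 3.99 in CD8 and from 2.77 to 5.68 in CD4 cells. *Ddx58*, which encodes the RNA sensor RIG-I, stood at 101 against 32.4 CPM in CD8 cells (ratio 3.103, 2.02 to 4.73) and at 110 against 30.6 CPM in CD4 cells (ratio 3.5996, 2.40 to 5.32). *Tmem173*, which encodes the adaptor STING, was at 1.10 (0.704 to 1.68) and 0.961 (0.633 to 1.41), intervals that both held 1. *Zbp1*, listed with the effectors, encodes a sensor of left-handed nucleic acid. It stood at 362 against 95.5 CPM in CD8 and 430 against 97.8 CPM in CD4 cells, with ratios of 3.79 (3.01 to 4.76) and 4.40 (3.58 to 5.39).

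Transcription and signaling genes split into those that moved with membership and those that did not. Of the measured genes, 6 of 14 in CD8 and 9 of 16 in CD4 cells were at least 2-fold higher. *Irf7* (chromosome 7, 141262706 to 141266481), which encodes the factor that amplifies type I interferon, stood at 218 against 48.7 CPM in CD8 cells (ratio 4.48, 3.29 to 6.12) and at 290 against 42.9 CPM in CD4 cells (ratio 6.76, 5.13 to 8.91). *Stat2*, a component of the complex described above, had ratios of 4.95 (2.83 to 8.74) and 3.90 (2.40 to 6.23). *Daxx*, *Dtx3l*, *Parp9* and *Parp14* had ratios from 3.21 to 4.62 in CD8 and from 2.77 to 3.32 in CD4 cells.

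*Irf1*, an early interferon target, stood at 151 against 168 CPM in CD8 cells and 220 against 203 CPM in CD4 cells, with ratios of 0.898 (0.672 to 1.18) and 1.08 (0.848 to 1.37). *Socs1*, a feedback inhibitor of JAK kinases, was at 0.961 (0.684 to 1.33) and 1.04 (0.795 to 1.35), and *Socs3* at 1.03 and 0.779. *Irf9* was at 1.07 (0.630 to 1.76) in CD8, where it fell just short of the 50 CPM minimum, and at 1.64 (1.11 to 2.38) in CD4 cells. *Irf8*, a gene of myeloid and B cells that some T cells express, had ratios of 0.790 and 2.17 with all cells and of 0.508 and 1.16 without cells with UMIs of other cell types.

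GTPases of the guanylate-binding and immunity-related families, which attack the membranes around intracellular microbes, had the highest CD4 ratio over CD8 ratio among the 4 largest interferon-induced lists and MHC class I presentation. Their summed level was 1381 against 627 CPM in CD8 cells, a ratio of 2.20 (1.98 to 2.44), and 2223 against 768 CPM in CD4 cells, a ratio of 2.89 (2.66 to 3.14). The CD4 ratio exceeded the CD8 ratio 1.31-fold (1.15 to 1.501), and 1.38-fold (1.20 to 1.59) without cells with UMIs of other cell types. The ratios were nearly alike without the upper limit of detected genes, at 2.26 in CD8 and 2.31 in CD4 cells. Cells with *Pdcd1* did not show a higher CD4 ratio, with 3.45 (2.92 to 4.07) in CD8 and 3.08 (2.60 to 3.65) in CD4 cells. *Gbp2* (chromosome 3, 142620602 to 142638008) stood at 125 against 54.7 CPM in CD8 cells (ratio 2.28, 1.59 to 3.24) and at 266 against 57.2 CPM in CD4 cells (ratio 4.65, 3.56 to 6.04). *Iigp1* reached 124 CPM in CD4 members against 25.8 CPM, a ratio of 4.78 (3.21 to 7.09), whereas in CD8 members it stood at 24.0 against 12.6 CPM (ratio 1.90, 0.799 to 4.21), under the minimum. *Irgm1* had ratios of 3.34 (2.25 to 4.92) and 4.03 (2.87 to 5.62).

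**Figure D3:**
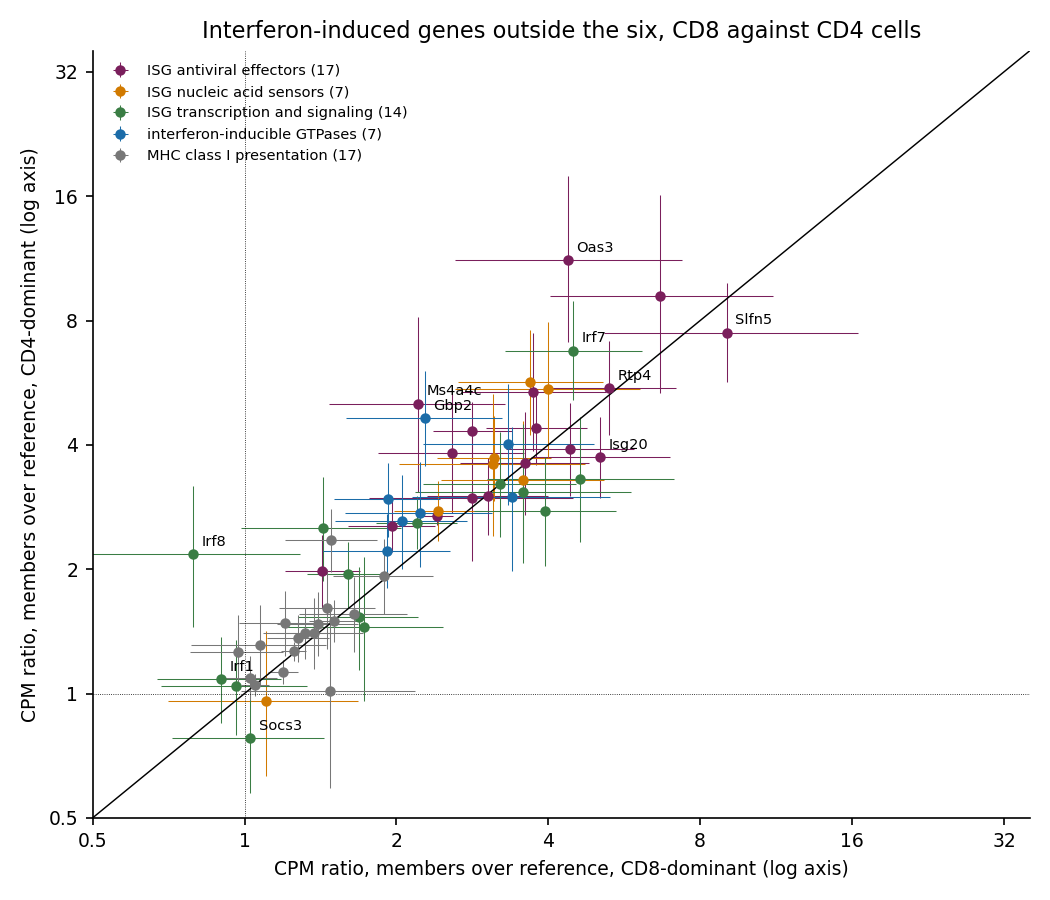
CPM ratio of members over reference in CD8-dominant (x axis) and CD4-dominant cells (y axis), both log, for listed interferon-induced and MHC class I genes whose mean CPM reached 50 in both comparisons; bars are 95% counting intervals and the solid line marks equal ratios. Effectors, sensors and GTPases lie above 2 in both kinds with few exceptions, *Oas3* and *Gbp2* lie on the CD4 side, and MHC class I genes, *Irf1* and *Socs3* lie near 1.

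Genes that attach ISG15 to its targets were mostly under the minimum, yet their summed level was 221 against 61.9 CPM in CD8 and 269 against 84.3 CPM in CD4 cells, ratios of 3.56 (2.66 to 4.77) and 3.19 (2.49 to 4.06). MHC class I presentation, which both interferon types induce, moved less. Of 17 measured genes, 0 in CD8 and 1 in CD4 cells were at least 2-fold higher, and the summed ratios were 1.22 (1.18 to 1.25) and 1.24 (1.21 to 1.27). The exception was *H2-T22*, a nonclassical class I gene, with ratios of 1.49 (1.20 to 1.83) and 2.36 (1.97 to 2.80). *Tapbp*, which encodes the peptide-loading chaperone tapasin, had 1.89 (1.497 to 2.37) and 1.93 (1.56 to 2.37). The proteasome subunit gene *Psmb8* had 1.51 (1.34 to 1.69) and 1.499 (1.33 to 1.69). The abundant *H2-K1*, at 2733 against 2605 CPM in CD8 and 3365 against 3209 CPM in CD4 cells, differed by less than counting error in both. Genes of the class I family are near-identical in part, so reads can be split among them.

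Receptors and kinases of the pathway did not follow. In CD8 cells 0 of 3 and in CD4 cells 0 of 5 measured genes were past 2-fold, and summed ratios were 0.956 (0.860 to 1.06) and 1.01 (0.916 to 1.12). *Ifnar2* was at 1.03 (0.662 to 1.57) in CD8 and 1.79 (1.23 to 2.57) in CD4 cells, and *Ifngr1* at 1.06 and 1.07. Of 18 listed interferon genes, 17 of type I or III had no UMI in members, which allows up to 7.19 CPM in CD8 and 8.06 CPM in CD4 members. *Ifng* (chromosome 10, 118441046 to 118445892) had a lower summed level in CD8 members, at 125 against 237 CPM, a ratio of 0.525 (0.385 to 0.703). In CD4 cells it was alike, at 96.8 against 97.4 CPM, a ratio of 0.993 (0.680 to 1.41). The CD4 ratio was 1.89-fold (1.16 to 3.04) that of CD8 cells. Per 10000 UMIs of a CD8 cell, the *Ifng* median was 0 in members and reference, and the upper quartile was 1.79 and 1.67 UMIs. The highest CD8 member had 20.5 and the highest CD8 reference cell 87.3. The lower sum was thus not matched by a lower upper quartile, and the part of the highest cells in it was not tested.

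The promoters of the genes that moved were read in the same way, and those shown next bear the match in genes outside the rule; they are *Slfn5*, *Oas3*, *Bst2* and *Gbp2*, which were at least 2-fold higher in both kinds, and *B2m*, the light chain of MHC class I, which was at 1.25 and 1.27.
Slfn5, chr11:82951937-82952101, plus strand: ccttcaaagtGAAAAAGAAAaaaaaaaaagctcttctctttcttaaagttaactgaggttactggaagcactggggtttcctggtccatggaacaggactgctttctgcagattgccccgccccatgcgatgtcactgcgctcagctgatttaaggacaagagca
Oas3, chr5:120777660-120777809, minus strand: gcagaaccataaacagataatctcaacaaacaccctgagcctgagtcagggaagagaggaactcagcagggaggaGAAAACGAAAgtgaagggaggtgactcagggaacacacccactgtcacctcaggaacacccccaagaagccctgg
Bst2, chr8:71537473-71537622, minus strand: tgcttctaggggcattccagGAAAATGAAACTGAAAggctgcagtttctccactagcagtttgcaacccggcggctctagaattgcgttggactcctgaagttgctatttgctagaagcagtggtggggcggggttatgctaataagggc
Gbp2, chr3:142620513-142620662, plus strand: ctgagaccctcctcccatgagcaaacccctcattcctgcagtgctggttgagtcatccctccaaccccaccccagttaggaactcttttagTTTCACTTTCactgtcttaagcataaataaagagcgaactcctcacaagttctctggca
B2m, chr2:122147537-122147686, plus strand: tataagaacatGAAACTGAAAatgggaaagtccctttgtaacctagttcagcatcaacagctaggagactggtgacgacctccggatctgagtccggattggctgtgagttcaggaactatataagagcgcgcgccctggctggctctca
In CD8 cells, 27 of 76 higher genes with an entry (35.5%) held a response element-type match, against 102 of 1791 (5.70%) of all genes compared and 0 of 14 lower genes. In CD4 cells, 29 of 88 higher genes (32.96%) held one, against 100 of 1959 (5.11%) of all genes compared and 0 of 7 lower genes. Among higher genes outside the interferon lists the share was 20% in CD8 and 16.98% in CD4 cells. A gamma-activated site-type match, TTCNNNGAA, was found in 13.2% and 13.6% of higher genes and in 9.21% and 8.93% of all genes compared. All these shares use the minimum on both groups, which a gene high only in members can pass through them. With the minimum on the reference alone, 37 genes were higher in CD8 and 44 in CD4 members, and promoters of these sets were not tallied. By list, response element-type matches were found in 9 of 11 promoters of the GTPases, 10 of 18 of the sensors, 14 of 30 of the effectors, 2 of 22 of the transcription and signaling genes and 5 of 18 of MHC class I presentation. The promoter of *Oasl2*, one of the highest ratios in CD4 cells, held no match in this window. Nor did any promoter listed for *Irf7*, *Isg20* or *Daxx*, which were at least 2-fold higher in both kinds.

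Levels of the interferon lists followed the 6-gene sum through the cells that were neither members nor reference. In CD8 cells, the 86 genes stood at 5224 CPM at a sum of 0, at 5881 CPM at 1, 7936 at 2, 10500 at 3, 10570 at 4 and 12355 at 5. In CD4 cells the same order gave 6674, 8185, 10457, 12916, 13041 and 13790 CPM. Cells just outside the threshold thus had nearly the level of those just inside. At a sum of 8 or more, 37 CD8 cells stood at 15575 CPM and 56 CD4 cells at 22758 CPM. MHC class I genes differed less between the ends, at 11953 CPM at a sum of 0 and 15228 CPM at 8 or more in CD8 cells and at 13417 and 16957 CPM in CD4 cells. Because a sum from counts is higher in deeper cells, with median depths of 2884 UMIs at a sum of 0 and 4672 UMIs at 8 or more in CD8 cells, the part of depth in this order was not tested.

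**Figure D4:**
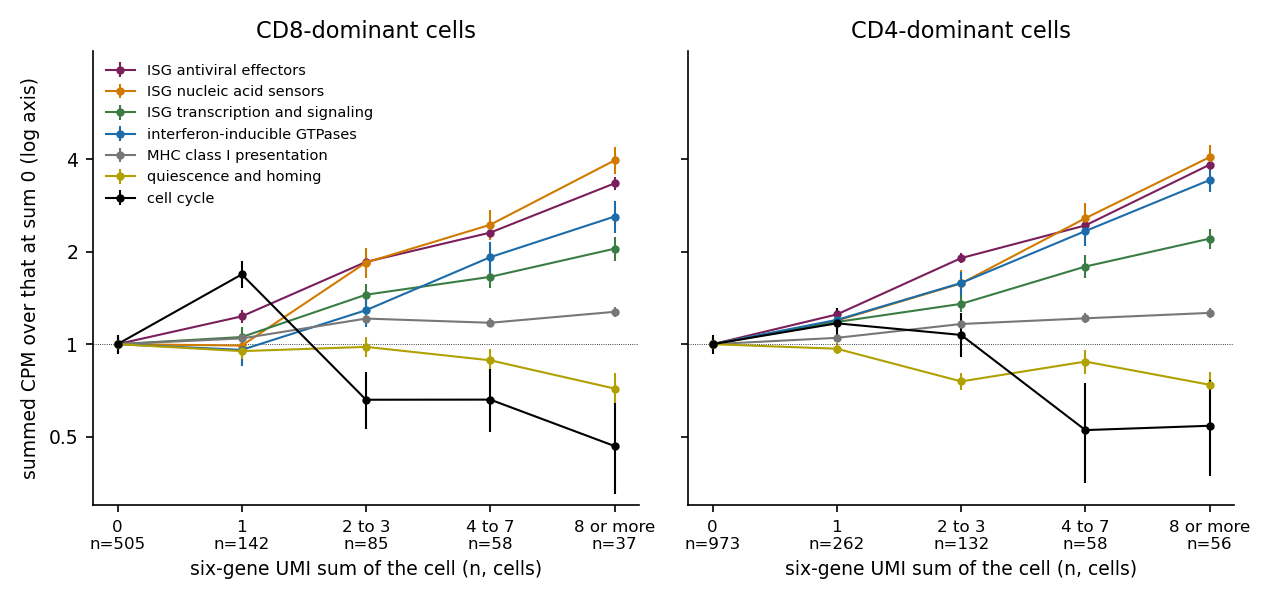
Summed CPM of each gene list relative to cells with a sum of 0 (y axis, log) by the 6-gene UMI sum of the cell (x axis, with the number of cells), in CD8-dominant (left) and CD4-dominant cells (right); bars are 95% Poisson intervals of the summed counts. Effectors, sensors, GTPases and signaling genes climb with the sum, MHC class I genes climb less, and quiescence and cell cycle genes end below 1.

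Detection was also compared in cells brought to equal depth. With each cell thinned to 1500 UMIs, which left out 4 CD8 and 7 CD4 members and 61 and 193 reference cells with fewer, *Zbp1* was found in 46.2% (35.6 to 56.9) of CD8 members and 14.2% (11.1 to 17.8) of their reference. In CD4 cells it was found in 39.3% (29.95 to 49.2) and 12.4% (10.2 to 14.96). Before thinning these shares were 74.7%, 24.0%, 70.2% and 19.9%. In CD8 cells with a sum of 1 to 3, *Zbp1* was found in 15.9% (11.2 to 21.7) and *Bst2* in 24.6% (18.9 to 31.1), near the 14.2% and 21.6% of the reference, whereas in CD4 cells with such a sum *Zbp1* was found in 23.3% (18.95 to 28.2). *Irf7* was found in 23.1% (14.9 to 33.1) against 6.76% (4.60 to 9.51) and in 35.5% (26.5 to 45.4) against 6.03% (4.46 to 7.93). As a measure of free RNA, any of 4 melanoma genes, which T cells lack, was found in 0.966% to 2.05% of these groups.

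Genes of T cell state were described next. Cytotoxic genes did not move together. *Gzmb* (chromosome 14, 56258838 to 56262260), which encodes granzyme B, stood at 1206 against 592 CPM in CD8 cells, a ratio of 2.04 (1.82 to 2.27). Without cells with at least 2 UMIs of other cell types it was 1.88 (1.67 to 2.12), which is under 2-fold. In CD4 cells it stood at 540 against 359 CPM, a ratio of 1.505 (1.28 to 1.76). At 1500 UMIs it was found in 46.2% (35.6 to 56.9) of CD8 members and 29.96% (25.7 to 34.5) of their reference. *Prf1*, which encodes the pore-former perforin, was lower in CD8 members, at 35.96 against 90.7 CPM (ratio 0.396, 0.216 to 0.675), and *Gzma* was at 0.833 (0.734 to 0.941). *Gzmk* was at 1.49 (1.15 to 1.91) in CD8 and 2.17 (1.35 to 3.39) in CD4 cells. The chemokine gene *Ccl5*, the most abundant of the list, was at 1.28 (1.24 to 1.32) and 1.33 (1.24 to 1.43).

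*Gzmc*, under the minimum, was found in 3 CD8 members, at 7.19 against 72.1 CPM (ratio 0.0997, 0.0203 to 0.299), and *Xcl1*, a chemokine gene of activated CD8 cells, stood at 38.4 against 208 CPM (ratio 0.184, 0.104 to 0.304). For *Xcl1*, the share of cells at 1500 UMIs was 7.69% (3.15 to 15.2) of CD8 members and 9.01% (6.51 to 12.1) of their reference, intervals that overlap, and at 1000 UMIs it was 2.15% and 7.81%. The lower level was thus not matched by an equally lower share of cells at 1500 UMIs. *Ifitm1*, of the interferon-induced transmembrane family, was the next lowest after *Xcl1* among CD8 genes compared, at 21.6 against 83.5 CPM (ratio 0.258, 0.116 to 0.505). It was found in 3 CD8 members (3.16%) and in 2.77% of their reference, and 66.7% of its UMIs in members came from 1 cell. Without cells with at least 2 UMIs of other cell types its ratio was 0.0913, under the 0.200 of *Xcl1*.

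Surface molecules of the Ly6 family, which interferon induces in lymphocytes, were higher in both kinds. *Ly6a* (Sca-1) had ratios of 1.82 (1.62 to 2.04) and 1.74 (1.61 to 1.87), *Ly6c2* 1.48 (1.36 to 1.62) and 2.36 (1.95 to 2.84), and *Ly6e* 1.37 (1.25 to 1.5003) and 1.21 (1.12 to 1.31). *Cd274*, which encodes PD-L1, was at 47.9 against 24.0 CPM in CD8 cells (ratio 1.99, 1.10 to 3.49), just under the minimum, and at 105 against 26.6 CPM in CD4 cells (ratio 3.94, 2.58 to 5.93). Without cells with UMIs of other cell types its ratios were 1.68 and 2.68.

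Of 12 activation and checkpoint genes past the minimum, 0 in CD8 and 1 in CD4 cells (*Cd274*) were at least 2-fold higher and 0 were at least 2-fold lower, and the summed ratios were 1.10 (1.02 to 1.18) and 0.886 (0.833 to 0.941), or 1.12 and 1.01 without cells with any UMI of other cell types. *Lag3*, an inhibitory receptor gene, was at 1.49 (1.06 to 2.07) in CD8 and 0.663 (0.457 to 0.935) in CD4 cells, and *Tigit* at 1.17 (0.861 to 1.57) and 0.632 (0.472 to 0.832). The CD4 ratio over the CD8 ratio was below 1 for both, with intervals from 0.270 to 0.728 for *Lag3* and from 0.355 to 0.822 for *Tigit*. *Tnfrsf4*, which encodes the costimulatory receptor OX40, was at 0.656 (0.540 to 0.791) in CD4 members. *Ccr2*, a receptor that guides cells into inflamed tissue, was at 1.57 (1.19 to 2.05) in CD8 and 0.798 (0.616 to 1.02) in CD4 cells.

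Quiescence and homing genes were slightly lower in sum, with ratios of 0.816 (0.755 to 0.882) in CD8 and 0.806 (0.751 to 0.863) in CD4 cells. *Klf2*, a factor that keeps cells quiescent and recirculating, had ratios of 0.723 (0.632 to 0.824) and 0.816 (0.723 to 0.918). *Lef1* and *Ccr7*, genes of naïve cells, were at 0.560 (0.389 to 0.783) and 0.550 (0.360 to 0.810) in CD4 cells and at 0.731 and 0.991 in CD8 cells. *Dapl1*, which naïve and central memory cells express, was at 2.06 (1.30 to 3.20) in CD8, where 10 members had a UMI, and at 0.250 (0.06701 to 0.660) in CD4 cells, where 4 had one.

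Of 12 cell cycle genes, 3 passed the minimum in CD8 and 1 in CD4 cells, and summed levels were 259 against 446 CPM in CD8 (ratio 0.580, 0.469 to 0.710) and 169 against 317 CPM in CD4 cells (ratio 0.534, 0.407 to 0.691). *Stmn1*, a tubulin regulator of dividing cells, was at 0.412 (0.253 to 0.640) in CD8 members and was found in 17.9% of them and in 17.4% of their reference. *Pclaf* and *Tuba1b*, also higher in dividing cells, were among the 12 lowest ratios, at 0.387 and 0.445. Helper cytokines were sparse. *Il13* and *Il17a* stood at 5.38 CPM each in CD4 members, from 1 cell each, against 50.5 and 30.2 CPM in their reference.

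**Figure D5:**
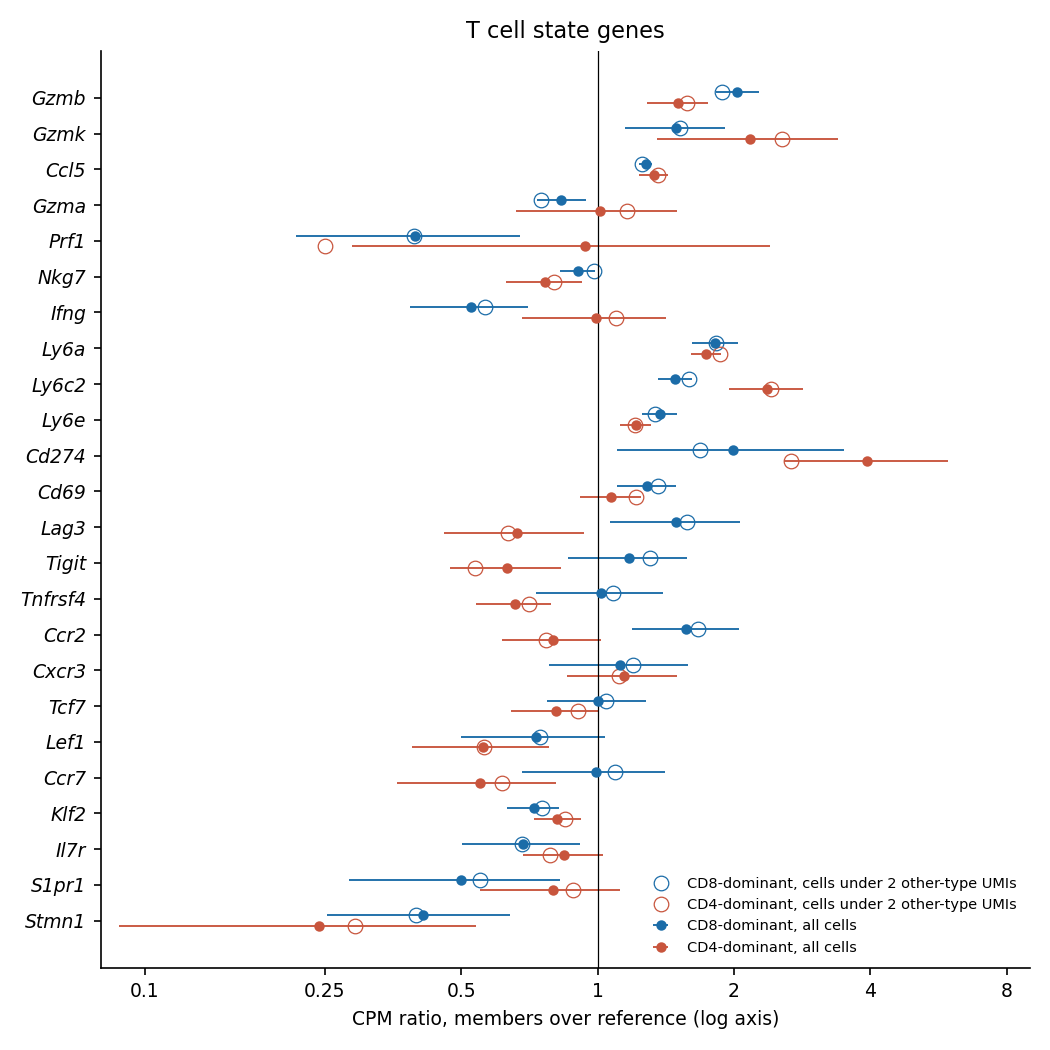
CPM ratio of members over reference (x axis, log) for genes of T cell state, in CD8-dominant (blue) and CD4-dominant cells (red); filled points are all cells with 95% counting intervals, and open points leave out cells with at least 2 UMIs of other cell types. *Gzmb*, *Ly6a*, *Ly6c2* and *Cd274* lie above 1 in both kinds, *Stmn1* and *Klf2* below 1, and *Lag3*, *Tigit* and *Ccr2* lie on opposite sides.

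Members were found among cells with and without *Gzmb*. Members made up 14.9% (11.5 to 19.005) of the 368 CD8 cells with a *Gzmb* UMI and 8.71% (6.30 to 11.7) of the 459 without. In CD4 cells the shares were 8.98% (6.37 to 12.2) of 401 with and 7.22% (5.75 to 8.93) of 1080 without. With and without a *Gzmb* UMI the 86 interferon genes were higher in members than in reference cells of the same state, by 2.42-fold and 2.48-fold in CD8 and by 2.675-fold and 2.91-fold in CD4 cells.

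The highest ratios of all were not those of T cell genes. Of the 12 highest in CD8 members, *Spp1*, *Ccl7*, *Ccl2*, *Ctsl*, *Wfdc17*, *Lyz2* and *Cd68* are genes of macrophages and monocytes. *Spp1* was found in 6 CD8 members, at 367 against 2.40 CPM, and 85.0% of its UMIs came from 1 cell. Without cells with at least 2 UMIs of other cell types, *Ccl2*, *Ctsl* and *Lyz2* had ratios of 0, 0.350 and 0.700, *Ccl7* and *Cd68* of 1.40 each, *Wfdc17* of 1.87 (0.420 to 6.69) and *Spp1* of 4.20 (0.304 to 57.9), all with intervals that held 1. In CD4 members, *Ccl2*, *Lyz2*, *Ier3*, *C1qb* and *Tyrobp* were among the 12 highest, and their ratios without these cells ranged from 0 to 1.39. *Lyz2* was itself among the markers that removed cells, as were *Cd68* and *C1qb*.

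*Cxcl10*, a chemokine gene that interferons induce, was found in 17 CD8 members, at 168 against 10.2 CPM (ratio 16.4, 9.56 to 29.8), and in 15 CD4 members, at 161 against 17.1 CPM (ratio 9.43, 6.27 to 14.3). Without cells with UMIs of other cell types its ratio was 6.44 (3.22 to 13.3) in CD8 and 9.58 (6.29 to 14.7) in CD4 cells. In CD4 members, 31 of its 60 UMIs (51.7%) came from 1 cell, and without these UMIs the ratio was 4.56; in CD8 members 20 of 70 came from 1 cell, and the ratio was 11.7. *Ifitm3* had ratios of 12.6 and 9.35, and of 1.02 (0.458 to 2.08) and 3.51 (2.47 to 4.93) without these cells. The summed macrophage and monocyte markers had ratios of 3.61 (3.23 to 4.04) and 4.38 (3.92 to 4.88) with all cells and of 1.34 and 1.01 without.

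The other lists were described by their sums. Heat shock genes had summed ratios of 0.880 (0.835 to 0.926) in CD8 and 1.24 (1.18 to 1.30) in CD4 cells, and immediate early genes of 1.00 (0.953 to 1.06) and 1.19 (1.14 to 1.24). Without cells with at least 2 UMIs of other cell types, immediate early genes had 0.842 (0.792 to 0.895) in CD8 and 1.13 (1.08 to 1.19) in CD4 cells. None of the 8 heat shock genes was past 2-fold in either kind, and of the 10 immediate early genes only *Atf3* was, at 4.19 in CD8 and 9.60 in CD4 cells and at 1.05 and 4.44 without cells with UMIs of other cell types. Chemokine receptors had summed ratios of 1.08 (0.942 to 1.23) and 0.953 (0.844 to 1.07). MHC class II genes had 1.22 (0.965 to 1.53) in CD8 and 3.54 (3.15 to 3.99) in CD4 cells, the latter 0.674 without cells with UMIs of other cell types. NK cell markers, which include *Tyrobp*, had 2.25 (1.83 to 2.74) and 5.62 (4.34 to 7.26) with all cells and 1.53 and 1.49 without. B cell markers had 0.563 and 0.757, and the TCR constant genes 1.04 (0.941 to 1.16) and 0.934 (0.836 to 1.04). Treg genes had 1.12 (1.01 to 1.24) and 0.896 (0.834 to 0.962), and helper cytokine and lineage genes 0.910 (0.670 to 1.22) and 0.772 (0.650 to 0.911). Dendritic cell and melanoma markers were too sparse to compare, with 11 and 7 UMIs in CD8 and 2 and 3 UMIs in CD4 members.

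Members were clonally diverse. The 71 CD8 members with a clonotype belonged to 70 clones and the 77 CD4 members to 76. A clone counted as expanded if at least 2 cells of the kind shared it, and 12 CD8 members (16.9%, 9.05 to 27.7) belonged to such clones, against 13.2% (9.77 to 17.3) of their reference. In CD4 cells these shares were 9.09% (3.73 to 17.8) and 4.62% (3.11 to 6.56). Of the 11 expanded CD8 clones with a member, 1 held more than 1 member, and their 24 cells comprised 12 members, 4 cells with a sum of 1 to 3 and 8 with a sum of 0. The 6 expanded CD4 clones with a member comprised 7 members, 2 cells in between and 3 with a sum of 0. Clone mates of a member thus were on either side of the threshold, and the differences between members and reference were within counting error.

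Few cells could be placed in a tumor, since the hashtag library held 1730 UMIs of its 4 tags, and 99.992% of its counts stood in the row of unmapped tags. Cells were placed if they had a tag UMI and all came from tags of 1 tumor. Of 9 tagged CD8 members, 1 carried a B16–IL-33 tag (11.1%, 0.281 to 48.2), against 7 of 48 reference cells (14.6%, 6.07 to 27.8). Of 8 tagged CD4 members it was 1 (12.5%, 0.316 to 52.7), against 14 of 106 (13.2%, 7.41 to 21.2). Members made up 15 of 198 tagged B16 cells of both kinds (7.58%, 4.30 to 12.2) and 2 of 28 tagged B16–IL-33 cells (7.14%, 0.877 to 23.5), so a difference between tumors was not detectable at this depth.

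The same sum was found in other T cells of the pool. At least 4 UMIs were held by 11.5% (10.0 to 13.2) of 1633 Treg cells with a *Foxp3* UMI, by 11.2% (7.99 to 15.1) of 331 CD8 cells with *Pdcd1* and by 8.74% (5.74 to 12.6) of 286 CD4 cells with *Pdcd1*. Cells without a CD3 UMI, 612 in number, had the 6 genes at 1403 CPM (1338 to 1470). All CD8 cells had them at 452 CPM (427 to 477) and all CD4 cells at 401 CPM (382 to 421). In the cells without a CD3 UMI, 469 of the 1734 UMIs of these genes came from the highest cell, which the counting interval does not reflect. At least 4 UMIs were held by 12.6% (10.1 to 15.5) of them, against 11.5% of all CD8 and 7.70% of all CD4 cells. In Treg cells the 86 genes stood at 19762 CPM in 188 cells with a sum of at least 4 and at 8973 CPM in cells with a sum of 0. The Treg ratio of 2.20 (2.16 to 2.245) was below those of CD8 and CD4 members, whose intervals did not overlap it, and the Treg reference had the highest level. In CD8 cells with *Pdcd1* the ratio was 3.18 (3.02 to 3.34), above the 2.47 (2.38 to 2.55) of CD8 members. CD4 cells with *Pdcd1* had 2.71 (2.57 to 2.87), which overlapped the 2.86 (2.78 to 2.94) of CD4 members.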

How the data were processed

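Single-cell gene expression, hashtag and TCR libraries of 1 pool of sorted T cells were analysed. The authors deposited raw counts of UMIs per gene and barcode, per tag and barcode and per TCR contig, without normalization. Reads had been aligned to mm10 in a combined human and mouse reference; the matrix header names Cell Ranger 3.1.0 and the submitters' processing notes Cell Ranger 6.1.1. Mouse UMIs numbered 43420305 over 31053 genes and human UMIs 8562. Of the 14035 barcodes, 11756 were also in the hashtag and 6665 in the TCR library.

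UMIs were summed over the cells of a group and scaled to CPM in Python 3.11.15 with NumPy 2.4.6, pandas 2.3.3 and SciPy 1.17.1. Intervals at 95% were Clopper-Pearson for shares, Poisson for CPM, conditional binomial for ratios and conditional odds ratios for a ratio of ratios; a count of 0 allows up to 3 counts. Genes whose mean CPM reached 50 were compared and counted past a fold of 2. The ratio and its interval were tested on simulated data. Thinning drew 1500 UMIs per cell with a fixed seed. No doublet caller was run, and cells with at least 2 productive beta chains or with UMIs of other cell types were left out as alternatives. Named genes were the rule genes, genes of 26 lists (308 of 311 genes found) and the 12 highest and 12 lowest ratios of each kind. Members and lists were chosen with earlier results of these data known. In the hashtag library, 99.992% of counts were in a row of unmapped tags, which was left out. Groups came from each cell's own counts, as the labels give 1 pool. The authors' own clustering was not used here. Some genes of the lists are not reported here by name.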

Additional observations from a re-analysis of the deposited data

Results flagged for a closer look

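Interferon ligands outside the T cells described stood out because of 1 cell. Among the 9078 filtered cells, 17 genes of type I and III interferon had 223 UMIs, of which 222 came from 1 cell without a CD3 UMI. In this cell, *Ifnb1*, which encodes interferon-β, had 218 UMIs, and the 6 rule genes summed to 469 UMIs, the highest value of any filtered cell without CD3. Its 222 ligand UMIs were 2.38% of its 9310 UMIs, and it held 66 UMIs of *Cxcl10*. Of the markers of macrophages, dendritic cells, B cells and melanoma cells counted above, it held 71 UMIs in all. Of macrophage markers it held 18 UMIs of *C1qb*, 1 of *Lyz2* and 0 of *Csf1r*. It also held 10 UMIs of the MHC class II gene *H2-Aa*. Of all 14035 barcodes, 10 had a UMI of these ligands. The signal lies above the 3 counts that a count of 0 allows and rests on 1 barcode; its relation to the members was not tested.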

How the results depend on the processing

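With the sum set at 3 or at 6 UMIs, members made up 15.4% or 6.65% of CD8 and 10.8% or 5.27% of CD4 cells. Genes at least 2-fold higher numbered 95 in CD8 members and became 55 without cells with at least 2 UMIs of other cell types, 59 without cells with any (chosen after seeing the data), 205 at a minimum of 20 CPM and 47 at a fold of 3; the 106 of CD4 members became 238 and 60 under these last settings. Lower genes numbered 19 in CD8 members and became 12 and 37 at sums of 3 and 6, 31 without any UMI of other cell types, 36 with the reference weighted to the depth of members, 126 at 20 CPM and 4 at a fold of 3. The 8 lower genes of CD4 members became 18 without the upper gene limit, 21 at a mitochondrial limit of 10%, 1 and 34 at sums of 3 and 6, 17 without any UMI of other cell types, 15 against cells with a sum of 1 to 3, 32 with *Il2ra* and *Ikzf2* at 0, 41 by each cell's own CPM, 117 at 20 CPM and 0 at a fold of 3. With the minimum on the reference alone, chosen after seeing the data, 37 genes were higher and 31 lower in CD8 and 44 higher and 29 lower in CD4 members. The cause was not tested, apart from the smaller or larger set of genes that a fold or minimum sets. By the beta chain, 25.4% of CD8 and 12.1% of CD4 members and 20.1% and 8.86% of their reference cells were in expanded clones. With the tags numbered 1 alone, 0% of tagged CD8 and 0% of tagged CD4 members carried a B16–IL-33 tag, and with those numbered 2 alone 16.7% and 40% (2 of 5) did. The summed ratio of the 86 interferon genes ranged from 1.84 to 2.84 in CD8 and from 2.05 to 3.26 in CD4 cells over 12 and 13 alternatives, and that of macrophage markers from 1.34 to 4.71 and from 0.930 to 6.09. The last of these was 0.930 (0.656 to 1.29) without cells with any UMI of other cell types; most of these markers had chosen the cells left out, and the interval held 1. No paired analysis was possible because the pool is 1 sample. Depth limits the sparse cytokine genes and the tag comparison.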
